A study of Mus musculus with 12 samples.

Results

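Gssos2 is a noncoding RNA transcribed from the strand opposite to Gss, the gene for glutathione synthetase, on mouse chromosome 2. On the arrays it is carried by 1 probe, gi|568919754|ref|XR_375154.1|, out of 97836 probes outside the controls, and each array holds 2 spots of it. The probe was chosen by its measured values in all 4 groups of the study, so its levels and the differences between groups are given as a description, with no test. The name comes from the RefSeq gene table, which lists the same accession at a later version among 4 transcripts of Gssos2. The probe's own sequence was not used here, so the exon and the strand it covers were not determined. Gssos2 levels below are the signal of this probe.

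The arrays measured total RNA of vascular smooth muscle cells (VSMCs) cultured from male mice, with 12 one-colour Agilent arrays in 4 groups of 3. The floxed cells carried Hif1afl/fl, the intact allele flanked by recombination sites, and serve as the wild type. The deleted cells were Hif1a△SMC, in which the gene for the hypoxia factor HIF-1α was disrupted in smooth muscle, and the labels do not name the driver of the deletion. Cells of each genotype were kept for 24 h with 150 µM CoCl2, or with the same volume of PBS, in smooth muscle cell medium with serum, growth supplement and antibiotics. Whether a group's 3 arrays stand for separate cultures or mice is not given. The p-values below set a difference of group means against the spread within groups, and that spread may be only technical variation. No probe was matched to Hif1a, so the deletion was not checked on these arrays, and of 12 smooth muscle marker genes 1 was represented, by a RIKEN clone of the Cald1 locus. None of the 21 endothelial, fibroblast or leukocyte markers listed was represented. The arrays of deleted cells with CoCl2 stood apart as whole arrays: their 75th percentile lay between 8.09 and 8.28 on the log2 scale against 9.02 to 9.52 on the other 9, and 51.9% to 58.5% of probes were above background against 67.7% to 82.7%.

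Glutathione is the main small thiol of the cell and is made in a pair of steps, of which glutathione synthetase carries out the last, adding glycine to γ-glutamylcysteine. It buffers oxidants and binds metals. CoCl2 is used to mimic low oxygen because it interferes with the prolyl hydroxylases that mark HIF-1α for destruction, and it also causes oxidative stress. An RNA read from the opposite strand of a coding gene may act on that gene, act elsewhere or have no known role; no role of Gssos2 is assumed here.

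The RefSeq table of start windows, on build GRCm38.p6, holds 3 annotated starts of Gssos2. They are shown because they are the stretches where transcription of the probe's RNA would begin, and which of them belongs to the record on the array is not known. Each window covers 250 bases before and 50 bases after a start, on the plus strand, written 5′ to 3′. Capitals mark the only matches found, to a HIF core (ACGTG or GCGTG) or an antioxidant element (TGACNNNGC), searched on both strands.
Gssos2 start 1, chr2:155567628-155567927: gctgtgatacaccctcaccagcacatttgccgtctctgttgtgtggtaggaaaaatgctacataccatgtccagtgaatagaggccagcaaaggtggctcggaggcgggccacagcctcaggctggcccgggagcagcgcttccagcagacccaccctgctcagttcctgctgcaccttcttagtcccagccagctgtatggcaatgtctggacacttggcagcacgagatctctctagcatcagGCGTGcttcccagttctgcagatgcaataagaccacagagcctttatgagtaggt
Gssos2 start 2, chr2:155571334-155571633: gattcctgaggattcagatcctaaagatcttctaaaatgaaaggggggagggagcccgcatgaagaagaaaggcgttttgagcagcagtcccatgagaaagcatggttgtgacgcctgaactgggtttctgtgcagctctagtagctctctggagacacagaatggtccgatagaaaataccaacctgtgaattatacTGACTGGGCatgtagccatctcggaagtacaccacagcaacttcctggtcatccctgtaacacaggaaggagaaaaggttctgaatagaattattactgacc
Gssos2 start 3, chr2:155572903-155573202: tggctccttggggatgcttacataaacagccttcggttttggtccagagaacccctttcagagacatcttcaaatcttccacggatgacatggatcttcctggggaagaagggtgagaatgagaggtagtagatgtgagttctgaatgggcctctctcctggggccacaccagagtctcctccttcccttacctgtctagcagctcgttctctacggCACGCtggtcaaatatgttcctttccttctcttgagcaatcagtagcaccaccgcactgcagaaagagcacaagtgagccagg
The windows of starts 1 and 3 each held 1 HIF core, GCGTG beginning at position -5 from the annotated start in the first and its complement CACGC at position -33 in the other. The window of start 2 held 1 antioxidant element, TGACTGGGC, at position -52. A HIF core was present in 43.8% of all 32817 start windows of the table and an antioxidant element in 12.4%. No match to a metal element (TGCACNC or TGCGCNC, in 25.7% of windows) or an AP-1 site (TGANTCA, in 7.81%) was found in the 3 windows. The capitals are letter matches and not binding sites.

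The 3 starts lie inside Gss, 24932, 21226 and 19657 bases from the start of Gss, and are read towards it, since Gss is on the minus strand. In the RefSeq gene table the span of Gssos2 takes in nearly all of Gss and runs past the Gss start. The start window of Gss, chr2:155592761-155593060 on the minus strand, therefore falls within the span of Gssos2; it held 1 HIF core. The window of Gss had a GC content of 58.0% with 16 CpG dinucleotides. The Gssos2 windows had 55.7%, 46.7% and 51.3% GC with 7, 5 and 6 CpG, around the medians of all windows (52.7% and 7).

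Gssos2 was dim but measured on every array. All 24 spots were well above background, and 0 were saturated or marked as outliers. In floxed cells with PBS the processed signal, the background-subtracted intensity averaged over both spots, was 85.6, 109 and 108. In floxed cells with CoCl2 it was 140, 230 and 375. PBS-treated deleted cells gave 55.6, 79.0 and 62.7, and CoCl2-treated deleted cells 384, 334 and 123. The CoCl2 arrays were thus brighter than every PBS array, in both genotypes, before any scaling. The dimmest probe that still counted as above background lay between 22.2 and 46.0 on the 12 arrays. The spots of an array differed by 0.05 to 0.34 (median 0.18) on the log2 scale, and spot 1 was the brighter on 6 of 12 arrays. The scanner software's own error was between 10.1% and 15.6% of the signal.

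**Figure D1:**
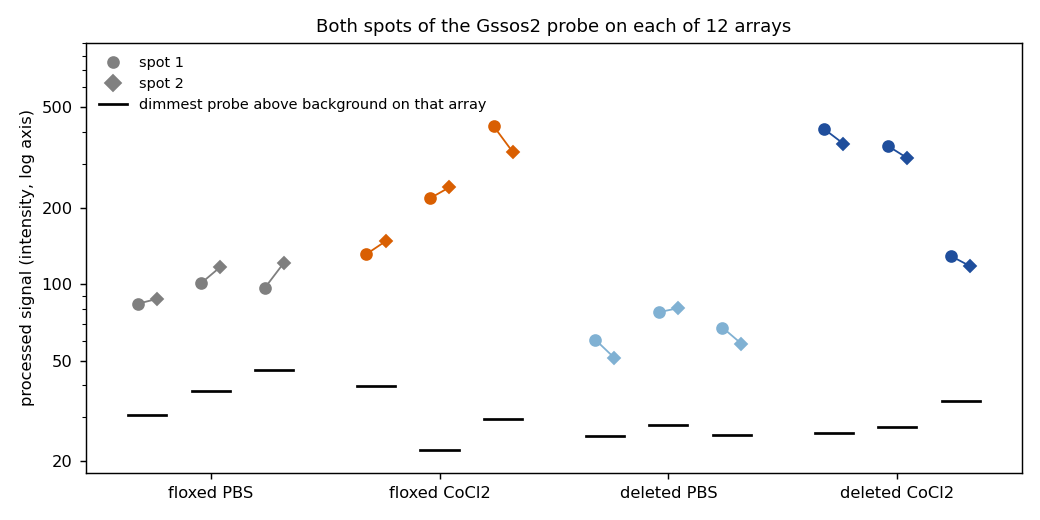
Processed signal (intensity, log axis) of both spots of the Gssos2 probe on each array, by group; circles and diamonds are the spots, joined within an array, and the black line is the dimmest probe above background on that array. The spots of each array lie close together, every array is above its line, and the third CoCl2 array of deleted cells, at 123, is far below the other two.

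To compare arrays, log2 signals were set against each array's 75th percentile over all probes, so a level of 0 means as bright as that percentile. The scaled level of Gssos2 was -2.77, -2.63 and -2.76 in floxed cells with PBS, a mean of -2.72 ± 0.08 (SD, n = 3). In deleted cells with PBS it was -3.22, -2.73 and -3.19, a mean of -3.05 ± 0.28 (SD, n = 3). The ranges of the PBS groups overlapped, and both were narrow. In floxed cells with CoCl2 the scaled level was -2.005, -1.58 and -0.70, a mean of -1.43 ± 0.67 (SD, n = 3). In deleted cells with CoCl2 it was 0.49, 0.10 and -1.18, a mean of -0.20 ± 0.87 (SD, n = 3). The CoCl2 arrays were more spread than the PBS arrays in each genotype, and 1 deleted array lay within the range of the floxed CoCl2 arrays. From low to high the groups were ordered deleted PBS, floxed PBS, floxed CoCl2, deleted CoCl2; the lower pair overlapped, the upper pair overlapped, and no CoCl2 array reached down to a PBS array.

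In deleted cells the scaled level was 2.85 higher with CoCl2 than with PBS (SE 0.46, from the spread within all 4 groups), a 7.22-fold difference. In floxed cells it was 1.30 higher (SE 0.46), a 2.46-fold difference. The gap between the lowest CoCl2 and the highest PBS array was 1.55 in deleted cells and 0.63 in floxed cells. Same-numbered arrays of floxed cells differed by 0.77, 1.06 and 2.06, and those of deleted cells by 3.72, 2.83 and 2.01. The difference between the genotypes' CoCl2 effects was 1.56 (SE 0.66). The second CoCl2 array of deleted cells was scanned 4 days after the other 11 arrays, and without it the deleted cells' difference was 2.71. The arrays measured RNA from whole cultures, where a larger share of expressing cells and more RNA per cell cannot be told apart.

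The size of the genotype difference depended on the processing, under PBS as well as under CoCl2. Under PBS the difference of deleted from floxed cells was -0.33 (SE 0.46), with overlapping arrays. Without scaling it was -0.62 and the arrays did not overlap. With slide as a block it was -1.12 and against a control probe of Pgk1 -0.93, both described below. Over all alternatives the difference under PBS ran from -1.12 to -0.08. Under CoCl2 deleted cells were 1.23 higher than floxed cells (SE 0.46), with overlapping arrays. Without scaling, the Gssos2 signal of CoCl2-treated deleted cells was 7.97 ± 0.89 (SD, n = 3) and that of CoCl2-treated floxed cells 7.84 ± 0.71 (SD, n = 3), a difference of 0.13. Against 4 E1A control probes, which report spiked RNA where it is added, the difference was 0.00058 (SE 0.50). These 4 were chosen after the data were seen because their group means stayed within 1 on the log2 scale. Against the planned E1A sets the difference was 1.64 with all 10 probes. It was 0.94 with the 6 that were above background and unsaturated on all arrays. Against the array median it was 1.76. Whether the lower brightness of the deleted CoCl2 arrays has a part in the genotype difference of Gssos2 was not tested beyond these values.

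**Figure D2:**
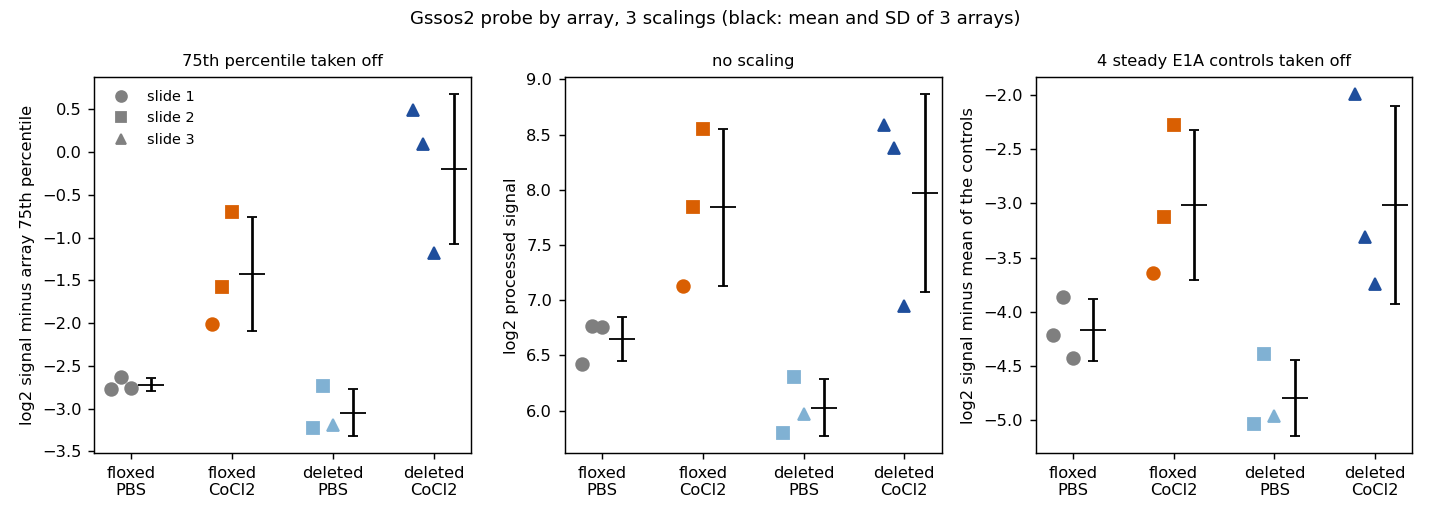
Log2 level of Gssos2 on each array under 3 scalings (75th percentile, none, 4 steady E1A controls); points are arrays, their shape is the slide, and black bars are the mean and SD of 3 arrays. CoCl2 arrays lie above the PBS arrays of the same genotype in all 3 panels, while the means of floxed and deleted CoCl2 arrays are 1.23 apart in the left panel and 0.13 and 0.00058 apart in the others.

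The higher level with CoCl2 was present in both genotypes without scaling and with the steady controls as with the 75th percentile, but in floxed cells not against the Pgk1 control probe. Without scaling the CoCl2 difference was 1.95 in deleted cells and 1.19 in floxed cells, each with no overlap between arrays. Against the 4 steady controls it was 1.78 and 1.15, again with no overlap. Since these controls were chosen for steady group means, they could move each unscaled value by less than 1. They are therefore no separate check. The difference of CoCl2 effects was then 0.76 without scaling and 0.63 against the controls, about the size of its SE (0.69 and 0.71). With the 3′ control probe of Pgk1 on the same array as reference, a comparison added after the data were seen, Gssos2 was 1.15 higher with CoCl2 in deleted cells and the difference in floxed cells was -0.41 (SE 0.41 for each), with overlapping arrays in both. The Pgk1 probe was itself higher with CoCl2, by 1.70 in deleted and 1.71 in floxed cells on the scaled values, so this reference moves with the treatment. Over all alternatives the CoCl2 difference ran from 1.15 to 3.34 in deleted cells and from -0.41 to 1.59 in floxed cells, and -0.41 was the only one below 0.

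**Figure D3:**
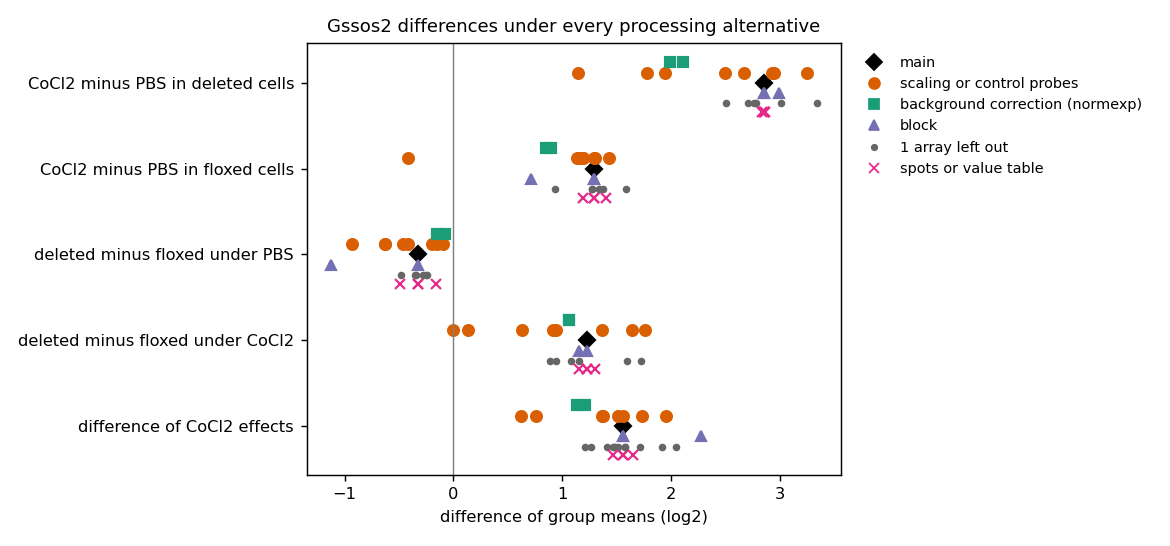
Difference of group means of Gssos2 (log2, horizontal axis) for each of 5 comparisons under every processing alternative, with the reported value as a black diamond. The CoCl2 differences lie between 1.15 and 3.34 in deleted cells and between -0.41 and 1.59 in floxed cells, where the lowest of each is that against the Pgk1 control probe, and the comparison of genotypes under CoCl2 reaches down to 0.00058.

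The arrays lie on 3 slides that follow the groups in part. Slide 1 held the 3 floxed PBS arrays and 1 floxed CoCl2 array, which was 0.72 above their mean. Slide 3 held 1 deleted PBS array and the 3 deleted CoCl2 arrays, whose mean was 2.99 above it. On slide 2 were 2 arrays of CoCl2-treated floxed cells and 2 of PBS-treated deleted cells, the former 1.84 higher. With slide as a block the CoCl2 difference was therefore 2.99 in deleted cells and 0.72 in floxed cells, and the genotype difference under PBS became -1.12. Genotypes under PBS were never on a slide together, and neither were genotypes under CoCl2, so slide and genotype are separated only through the arrays in between.

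Among all 70784 features tested, Gssos2 was near the top for CoCl2 by signed difference. A fall of any size was not counted as exceeding it. In deleted cells 66 features, or 0.0932%, had a higher difference, and in floxed cells 591, or 0.835%. The median feature differed by -0.13 in deleted cells and by 0.01 in floxed cells, so Gssos2 stood 2.98 and 1.29 above it; subtracting a constant from each array changes neither figure. Without scaling the median feature was 1.03 lower with CoCl2 in deleted cells (-1.03). Most other predicted noncoding records (accessions beginning XR) lay lower: their median over 6899 was -0.71 in deleted cells, where 3 exceeded Gssos2, and 0.02 in floxed cells, where 44 did. Under PBS, where Gssos2 was itself below 0 (-0.33), 72.9% of features had a higher signed genotype difference. Under CoCl2 3.47% had a higher one, and 0.124% had a higher difference of CoCl2 effects. These ranks describe a probe that was selected on its values.

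Gss itself and the genes around it could not be set beside Gssos2. The RefSeq table places 10 other genes within 100 kb of Gssos2: Gss, Ggt7 (a γ-glutamyl transferase family member), Acss2 (an acetyl-CoA synthetase) and its opposite-strand transcript Acss2os, Ncoa6 (a nuclear receptor coactivator), Myh7b (a myosin heavy chain), Mir499 within it, Trpc4ap, Gm14238 and Gm22334. A probe with a matching name was found for 0 of them. The lists of glutathione, oxidant, metal and HIF genes and of cell type markers held 172 genes, of which 0 were matched by accession and 3 by a RIKEN clone of their locus: Mgst3, Sod1 and Cald1. A clone names the locus and need not be the coding transcript.

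The clone at Sod1, the locus of the copper-zinc superoxide dismutase that removes superoxide, followed an array pattern close to that of Gssos2. Its scaled level was -2.33, -2.56 and -2.52 in floxed cells with PBS and -1.26, -0.67 and -0.83 with CoCl2. In deleted cells it was -2.55, -2.51 and -2.33 with PBS and 0.11, 0.35 and -0.83 with CoCl2. As for Gssos2, the third CoCl2 array of deleted cells was the lowest of its group and no CoCl2 array reached down to a PBS array. The Sod1 clone rose by 2.34 (SE 0.27) in deleted cells, with an adjusted p of 0.00010 by limma, and by 1.55 (SE 0.27) in floxed cells, with an adjusted p of 0.0083. The call in deleted cells held in 28 of 28 alternatives and that in floxed cells in 27, being lost with slide as a fixed block. Its difference of CoCl2 effects was 0.79 (SE 0.38), with an adjusted p of 0.16 by limma. Over the 12 arrays its level correlated with that of Gssos2 at r = 0.96 (Spearman 0.80), a description of points that share arrays and scaling. The r of the Mgst3 clone was 0.49 and that of the Cald1 clone 0.23.

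The clone at Mgst3, a microsomal glutathione transferase, did not pass the test. Its CoCl2 difference was 0.81 (SE 0.37) in deleted cells, with an adjusted p of 0.088 by limma, and 0.15 (SE 0.37) in floxed cells, with an adjusted p of 0.94. The call depended on the scaling: against the array median the Mgst3 clone was called, 1.21 higher with CoCl2 in deleted cells (adjusted p 0.015 by limma) and 1.35 higher in deleted than in floxed cells under CoCl2 (adjusted p 0.0059). The clone at Cald1, the locus of the actin-binding protein caldesmon, was well above background on 12 of 12 arrays, with a CoCl2 difference of 0.14 in deleted cells and 0.09 in floxed cells. The deleted cells' difference turned with the scaling: it was -0.77 (adjusted p 0.0023 by limma) without scaling and -0.94 (adjusted p 0.019) with the 4 steady controls, both called lower. The Cald1 clone was 0.71 (SE 0.19) higher in deleted than in floxed cells under CoCl2, with an adjusted p of 0.0063 by limma, and with the 4 steady controls as reference that difference was -0.52 and not called; slide as a fixed block also ended the call.

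The features most like Gssos2 were ranked by Pearson correlation over the 12 arrays among 177 with an established symbol. The 6 highest were Brip1os (r = 0.95, Spearman 0.87), Smap1 (0.91 and 0.83), Mir22hg (0.91 and 0.78), Lncpint (0.89 and 0.88), Sprr2g (0.89 and 0.66) and Gsdmcl2 (0.86 and 0.88). Brip1os lies opposite Brip1, a helicase of DNA repair, Mir22hg is the host transcript of the microRNA miR-22, and Lncpint is a long noncoding RNA that responds to p53. The 3 most negative were AW046200 (-0.83), Pdxk-ps (-0.81) and Sox5os4 (-0.78). AW046200 was well above background on 9 of 12 arrays and on 0 of 3 deleted CoCl2 arrays. Sprr2g was well above background on 8 of 12 arrays and Sox5os4 on 10 of 12. Without the 2 arrays farthest from the median level of Gssos2, both deleted CoCl2 arrays, the r of Brip1os was 0.88 and that of Smap1 0.76. It was then 0.77 for Mir22hg, 0.80 for Lncpint, 0.73 for Sprr2g and 0.79 for Gsdmcl2. For AW046200 it was -0.51, for Pdxk-ps -0.84 and for Sox5os4 -0.82. The likeness depended on the scaling: without scaling Brip1os had r = 0.69, Mir22hg 0.75 and Smap1 0.20. Across all 70783 other features r ran from -0.98 to 0.99 with a median of -0.19, and 1154 (1.63%) exceeded 0.9.

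Brip1os is the nearest in pattern among the 177 features with an established symbol, and also an opposite-strand transcript. Over all other features 159 had an r above 0.95. In floxed cells its scaled level was 0.07, 0.20 and -0.05 with PBS and 0.55, 0.73 and 0.98 with CoCl2. In deleted cells it was 0.12, 0.29 and 0.42 with PBS and 1.49, 1.63 and 0.82 with CoCl2. Its arrays did not overlap between PBS and CoCl2 in either genotype, and its differences were smaller than those of Gssos2. Brip1os was 1.04 (SE 0.21) higher with CoCl2 in deleted cells, with an adjusted p of 0.0021 by limma, and 0.68 (SE 0.21) higher in floxed cells, with an adjusted p of 0.10. With no scaling and with the 4 steady controls its call in deleted cells was lost, and the difference was -0.04 with the controls; slide as a fixed block also ended the call. Mir22hg rose with CoCl2 in deleted cells, by 1.14 (SE 0.17) with an adjusted p of 0.00032 by limma. In floxed cells Mir22hg rose by 0.75 (SE 0.17) with an adjusted p of 0.026 by limma. Both calls were lost with no scaling. Brip1os and Mir22hg were picked here for their likeness to Gssos2, which was higher with CoCl2 on the scaled values. A rise was thus favoured by the choice, and these p-values are no separate evidence of it.

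**Figure D4:**
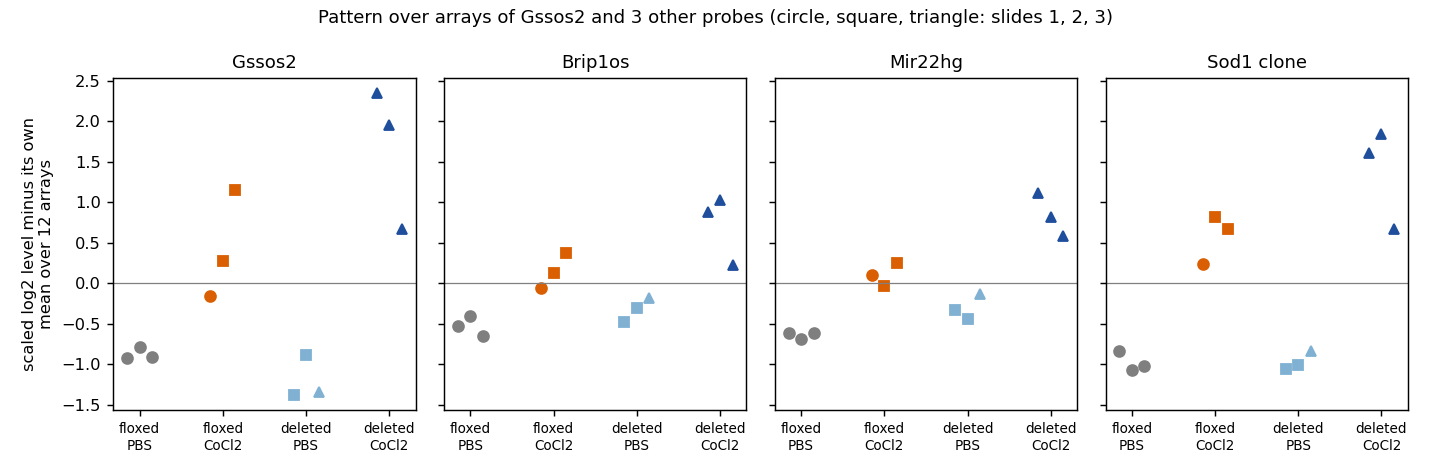
Scaled log2 level minus its own mean over 12 arrays for Gssos2, Brip1os, Mir22hg and the Sod1 clone; points are arrays, coloured by group, and their shape is the slide. In each panel the CoCl2 arrays of deleted cells lie highest as a group and the PBS arrays lie below 0, with the widest range in Gssos2 (scaled levels from -3.22 to 0.49).

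Gssos2 was next set beside the other transcripts that RefSeq names as lying on the strand opposite a gene. Of 63 such symbols on the arrays besides Gssos2, 38 passed the filter of clearing background on each array of 1 group or more; a transcript that passed through only 1 group was favoured to differ. In deleted cells 24 of the 38 were called for CoCl2 at an adjusted p under 0.05 by limma, 4 higher and 20 lower. Of all features 52.8% were called there, 20.1% higher and 32.7% lower. The median difference of the 38 was -0.62 against -0.13 for all features. None of the 38 rose with CoCl2 as much as Gssos2, in deleted cells (highest 1.04, Brip1os) or in floxed cells (highest 0.68, Brip1os). Some falls were larger in size than its rise: Cdrt4os1 in deleted cells (-2.86), and Sox5os4 (-1.43) and Sox5os3 (-1.35) in floxed cells. The split moved with the scaling, from 0 higher and 33 lower without scaling to 8 higher and 14 lower against the array median.

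The transcripts that rose in deleted cells were Brip1os, Hk1os (opposite the hexokinase gene Hk1), Appbp2os and, named after its values were seen, Rbm3os. Hk1os was 0.81 (SE 0.21) higher, with an adjusted p of 0.0071 by limma, and Appbp2os 0.72 (SE 0.26) higher, with an adjusted p of 0.036. Appbp2os was well above background on 1 of 3 CoCl2 arrays and 2 of 3 PBS arrays of deleted cells, and those arrays overlapped. Rbm3os, opposite a cold-induced RNA-binding protein gene, was 0.51 (SE 0.16) higher, with an adjusted p of 0.019 by limma. Under no scaling and with the 4 steady controls Hk1os and Appbp2os turned negative and were not called, and slide as a fixed block ended both calls. The call of Rbm3os was lost as well, since 0 opposite-strand transcripts were called higher in deleted cells under any of these settings.

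The largest falls with CoCl2 in deleted cells were those of Cdrt4os1, Kcnd3os and Plxna4os1. Kcnd3os, opposite a potassium channel gene, had a scaled level from -0.41 to 0.48 with PBS and from -2.89 to -1.64 with CoCl2. It fell by 2.61 (SE 0.32) with an adjusted p of 0.00014 by limma, a call that held in 28 of 28 alternatives. In floxed cells its mean was 0.79 with PBS and 0.80 with CoCl2. Cdrt4os1 fell by 2.86 (SE 0.47) with an adjusted p of 0.00060 by limma, and only 1 of its 3 deleted CoCl2 arrays was well above background. Plxna4os1, opposite a plexin gene, fell by 2.52 (SE 0.63) with an adjusted p of 0.0061 by limma, and its 3 CoCl2 arrays, 2 of them well above background, were spread from -5.25 to -1.96. With slide as a fixed block the difference of Plxna4os1 was -2.05 and no longer called (adjusted p 0.14 by limma).

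In floxed cells CoCl2 called 2 of the 38, both lower, against 4.94% of all features, 2.21% higher and 2.73% lower. Zeb2os, opposite the transcription repressor gene Zeb2, fell by 1.13 (SE 0.20), with an adjusted p of 0.0082 by limma. That call was lost with the 4 steady controls and with slide as a fixed block, where none of the 38 was called in floxed cells. Sox5os4, opposite the transcription factor gene Sox5, fell by 1.43 (SE 0.36), with an adjusted p of 0.043, and lost its call without any one of 10 of the 12 arrays. Both were also called lower in deleted cells, Sox5os4 by 1.39 and Zeb2os by 0.51 (log2 differences of -1.39 and -0.51), and Zeb2os kept that call in 11 of 28 alternatives and Sox5os4 in 25. With slide as a fixed block the deleted cells' difference of Sox5os4 was -1.24 (adjusted p 0.12 by limma). Among the deleted CoCl2 arrays Sox5os4 was well above background on 1 of 3 and Zeb2os on 2 of 3. The floxed arrays of the same number deviated together, and with the replicate block 3 of the 38 were called.

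**Figure D5:**
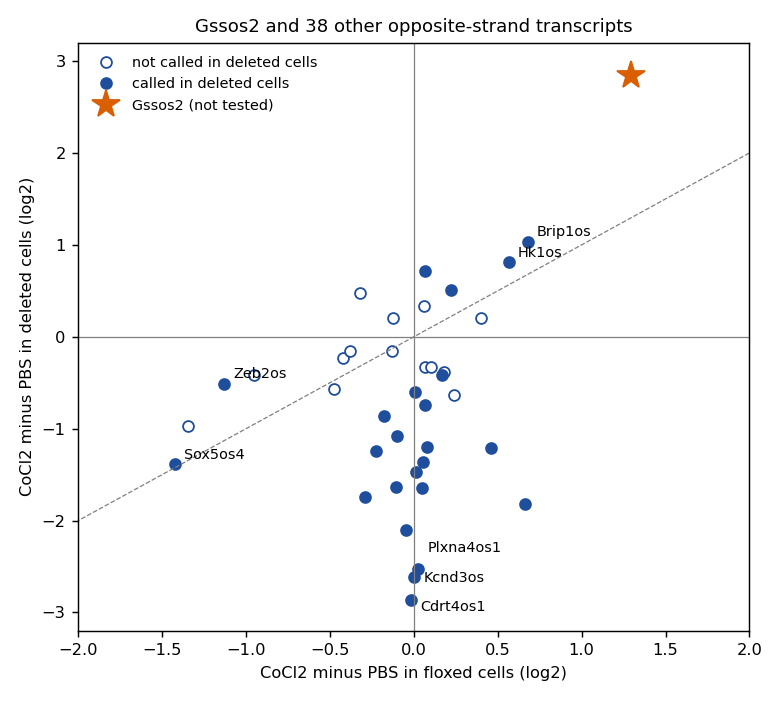
CoCl2 minus PBS (log2) in floxed cells (horizontal axis) and deleted cells (vertical axis) for 38 opposite-strand transcripts, filled where called in deleted cells, with Gssos2 as a star and a dashed line of equal differences. Gssos2, at 1.30 and 2.85, lies above and to the right of all 38, whose highest values are 0.68 and 1.04.

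Between genotypes under PBS 1 of the 38 was called, Dlx4os, opposite a homeobox gene, against 1.45% of all features, 0.52% higher and 0.931% lower. It was lower in deleted cells by 1.42 (log2 difference -1.42, SE 0.31), with an adjusted p of 0.049 by limma, and 13 of 27 alternatives kept the call; it was well above background on 1 of 3 deleted PBS arrays. Under CoCl2 27 of the 38 were called, 6 higher and 21 lower in deleted cells. Of all features 67.8% were called there, 31.9% higher and 35.9% lower. The median of the 38 was -0.72, where Gssos2 was at 1.23 and none of the 38 was higher (highest 1.04).

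The largest falls under CoCl2 were those of Kcnd3os (-3.27, SE 0.32), Cdrt4os1 (-3.26, SE 0.47) and Plxna4os1 (-3.23, SE 0.63). With slide as a fixed block the Kcnd3os call held (adjusted p 0.015 by limma) and those of Cdrt4os1 (adjusted p 0.053) and Plxna4os1 (adjusted p 0.13) were lost; these 2 were well above background on 1 and 2 of 3 deleted CoCl2 arrays. Among the called transcripts the largest rises were those of Appbp2os (0.75), Ino80dos (0.75), opposite a chromatin remodeler subunit gene, and Prkag2os1 (0.68), opposite the gene of an AMPK subunit. Appbp2os was well above background on 1 of 3 deleted CoCl2 arrays and Prkag2os1 on 2 of 3. Has2os, named after its values were seen, had the highest difference, 1.04, and was not called (adjusted p 0.051 by limma). With slide as a fixed block none of Appbp2os, Ino80dos and Prkag2os1 was called. These 3 rises became negative with no scaling and with the 4 steady controls, as the comparison for Gssos2 fell to 0.13 and 0.00058. The split was 0 higher and 31 lower without scaling and 12 higher and 17 lower against the array median. The difference of CoCl2 effects was called for 9 of the 38, all lower in deleted cells, against 20.5% of all features, 2.84% higher and 17.7% lower. The highest of the 38 was 0.79 and Gssos2 was at 1.56.

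The Agilent control probe at the 3′ end of Pgk1, a glycolysis gene that HIF-1 is known to raise, is present on every array. Its scaled level was 3.81 ± 0.14 (SD, n = 3) with PBS and 5.52 ± 0.15 (SD, n = 3) with CoCl2 in floxed cells. In deleted cells it was 4.41 ± 0.11 (SD, n = 3) and 6.12 ± 0.19 (SD, n = 3). The Pgk1 arrays of PBS and CoCl2 did not overlap in either genotype. The CoCl2 difference of Pgk1 was 1.71 in floxed and 1.70 in deleted cells, and without scaling 1.60 and 0.80. The 3′ probe of Gapdh, another glycolysis gene, differed by 0.84 in floxed and 0.99 in deleted cells, and with the 4 steady controls as reference by 0.69 and -0.09. The log2 signal of the 3′ Pgk1 probe over that of the 5′ one, which grows as RNA is shortened, lay between 2.46 and 3.11 on all 12 arrays, with means of 3.07 and 2.67 in deleted cells with PBS and CoCl2 and of 2.82 and 2.72 in floxed cells. The same ratio for Gapdh was higher and not lower with CoCl2: its means were -2.25 with PBS and -2.12 with CoCl2 for the deleted genotype, and -2.32 and -1.91 for the floxed one. The part of either ratio in the Gssos2 differences was not tested.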

How the data were processed

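In all 12 one-colour Agilent arrays were used, 3 in each of 4 groups. Per the file headers, Agilent Feature Extraction 11.5.1.1 made the processed signal, a background-subtracted linear intensity (protocol GE1_1105_Oct12, array design on build mm9); per the submitters' processing notes the version was 9.1. The deposited value table holds log2 values equal, within 0.01, to those computed here for all but 3 of the array by probe pairs, apart from a constant per array. The other columns used are the marks for background, saturation and outliers, per the file headers. The arrays' number limits the precision.

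Log2 signals of non-outlier spots were averaged per probe and each array's 75th percentile over 97836 probes was taken off. A probe was kept where it cleared background on each of a group's 3 arrays, with 1 probe per named gene. The 70784 features left were tested with limma 3.58.1 in R 4.3.3 (8 residual degrees of freedom, Benjamini-Hochberg adjusted p under 0.05). The fit was also run on simulated data with independent noise. Those data held no array-wide shift and no slide effect, so they cannot show how the fit behaves under either. Of 13017 probes with a RefSeq accession 4656 matched a symbol, and of 15675 RIKEN clones 1209 did. The Gssos2 probe and all lists were chosen with earlier results of these data known. Genes were named by these rules: Gssos2; genes within 100 kb; the 6 most and 3 least correlated established symbols; the 3 largest rises and falls among opposite-strand transcripts per comparison; list members; the controls Pgk1 and Gapdh. Same-numbered floxed arrays deviated together (correlations 0.40, 0.41 and 0.45), while deleted ones did not throughout (-0.14, 0.29 and 0.24). Python 3.11.15 was used for the descriptions.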

Additional observations from a re-analysis of the deposited data

Results flagged for a closer look

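The CoCl2 effect of 2 named opposite-strand transcripts differed between deleted and floxed cells by the test of that difference. Of all features 20.5% were called by it, 2.84% higher and 17.7% lower. For Cdrt4os1 the effect in deleted minus floxed cells was -2.85 (SE 0.66), with an adjusted p of 0.014 by limma. Cdrt4os1 was well above background on only 1 of 3 deleted CoCl2 arrays. It was not called after normexp background correction or with slide as a fixed block. For Kcnd3os the same difference was -2.62 (SE 0.45), with an adjusted p of 0.0044 by limma, and it was not called with slide as a fixed block.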

How the results depend on the processing

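The alternatives run kept the sign of the 5 Gssos2 differences with 1 exception: with the Pgk1 control probe as reference, added after the data were seen, the CoCl2 difference in floxed cells was -0.41. With that probe the deleted cells' difference was 1.15 and the genotype differences -0.93 under PBS and 0.63 under CoCl2. The others that moved a difference by more than the pooled SD (0.57) were these. Without scaling the CoCl2 difference in deleted cells was 1.95, the genotype difference under CoCl2 0.13 and the difference of effects 0.76; with the 4 steady E1A controls, added after the data were seen, they were 1.78, 0.00058 and 0.63. Normexp on the median signal, also added later, gave 2.11 with the 75th percentile and 1.99 with quantile normalization in deleted cells. With slide as a fixed block the floxed CoCl2 difference was 0.72, the genotype difference under PBS -1.12 and the difference of effects 2.28. The replicate block left the Gssos2 differences at 2.85, 1.30, -0.33 and 1.23, and within genotype it cannot inform differences between genotypes. Leaving out 1 array gave 2.51 to 3.34 in deleted cells, 0.93 to 1.59 in floxed cells, -0.48 to -0.24 under PBS, 0.89 to 1.72 under CoCl2 and 1.21 to 2.05 for the difference of effects.

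Of the opposite-strand counts, the 24 calls in deleted cells became 15 after normexp with the 75th percentile (8 higher, 7 lower) and 7 with slide as a fixed block. The 2 calls in floxed cells became 0 with the steady controls or the slide block (4 and 5 at an unadjusted p under 0.05 by limma), 1 with all 10 E1A controls, slide as a random block or no filter, and 4 after normexp with the 75th percentile. The 1 call under PBS became 9 without scaling, 2 with the percentile of probes above background on all arrays, 4 with either smaller E1A set, 6 after normexp with the 75th percentile, and 0 with the array median, quantile normalization, all E1A controls or slide as a random block (7, 11, 6 and 9 at an unadjusted p under 0.05 by limma). The 27 calls under CoCl2 became 10 with the slide block. Leaving out 1 array gave 18 to 25, 1 to 2, 0 to 3 and 24 to 29. With the replicate block the counts were 25, 3, 1 and 28; it changed no other count by over 1.5 times. The cause of these changes was not tested. Normexp on the mean signal was not run, since that column was not used here. A pair of spots per array and 3 arrays per group limit what can be said of a dim probe.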
